A study of Mus musculus with 6 samples.

Results

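The angiopoietin-like and VEGF family genes were followed in growth plate cartilage with and without a conditional deletion of Hnrnpk, which encodes an RNA-binding protein. The 10 genes were chosen by symbol: the angiopoietin-like genes Angptl1, Angptl2, Angptl4, Angptl6 and Angptl7, the ligands Vegfa, Vegfb and Vegfc, and the neuropilins Nrp1 and Nrp2. They are 10 of the 15803 genes listed, and all 10 passed the filter on low values, a mean of at least 1 CPM (reads scaled to 1000000 reads on genes per library). Angptl4 and Nrp1 rose in CKO cartilage, Angptl6 fell, and the other 7 genes did not pass the test.

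Cartilage of E18.5 mouse embryos, male and female, was sequenced as 3 libraries labelled WT and 3 labelled CKO. The WT embryos were Hnrnpk fl/fl without Cre. The CKO embryos were Col2a1-Cre;Hnrnpk fl/fl, so that both genotypes carried the loxP sites around exons 4-7 and only CKO carried Cre, made under the promoter of the chondrocyte collagen gene Col2a1. Cells of the sample in which Col2a1 was never active keep Hnrnpk, and no group with Cre alone was analysed here. The labels give a replicate number for each library but no litter, sex or animal count per library, so p-values measure the spread between these libraries.

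Secreted VEGF ligands bind receptor tyrosine kinases on endothelial cells and drive the growth of blood vessels (chiefly VEGF-A) or lymphatic vessels (VEGF-C), and neuropilins are co-receptors that bind both VEGF and class 3 semaphorins. Angiopoietin-like proteins are secreted and share the domain layout of the angiopoietins, but most do not bind the angiopoietin receptor Tie2. Several of them act in lipid metabolism, as ANGPTL4 does by inhibiting lipoprotein lipase, and the growth plate itself is an avascular tissue that vessels enter at its hypertrophic end.

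Upstream sequences are shown for 3 of the genes with the widest differences between libraries, since HIF-1 and PPAR receptors are known regulators of this family. The bases upstream of the annotated start that lie outside exons are given for Angptl6 (233 bases, chr9:20879728-20879960, minus strand), Angptl7 (250 bases, chr4:148500463-148500712, minus strand) and Nrp1 (250 bases, chr8:128358823-128359072, plus strand), from RefSeq on GRCm38.p6, 5′ to 3′. Capitals mark the core of the hypoxia response element, ACGTG or GCGTG, searched on both strands (CACGC is GCGTG read on the other strand).
Angptl6: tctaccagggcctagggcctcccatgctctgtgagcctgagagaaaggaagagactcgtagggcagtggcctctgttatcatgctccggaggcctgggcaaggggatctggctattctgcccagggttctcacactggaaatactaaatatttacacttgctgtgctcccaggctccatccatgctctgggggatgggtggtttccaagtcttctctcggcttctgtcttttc
Angptl7: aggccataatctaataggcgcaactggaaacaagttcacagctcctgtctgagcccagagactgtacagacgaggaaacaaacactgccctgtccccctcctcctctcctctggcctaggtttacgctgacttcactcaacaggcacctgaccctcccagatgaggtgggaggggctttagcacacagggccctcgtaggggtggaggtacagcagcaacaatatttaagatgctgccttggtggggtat
Nrp1: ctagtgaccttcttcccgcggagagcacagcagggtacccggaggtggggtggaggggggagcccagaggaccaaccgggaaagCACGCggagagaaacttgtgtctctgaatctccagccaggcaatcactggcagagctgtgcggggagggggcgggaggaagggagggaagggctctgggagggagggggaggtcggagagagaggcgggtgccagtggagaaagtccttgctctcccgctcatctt
The Nrp1 core began 166 bases before the RefSeq start, and the Angptl6 and Angptl7 windows held none. In GENCODE M21 the Nrp1 gene starts earlier, at chr8:128358604. By that annotation the Nrp1 window lies within the gene, outside its exons, and not upstream of it. Among the 32851 promoters of the reference set, 38.6% held at least 1 of these cores in the 250 bases before the start, so a match is common. Nrp2 and Vegfb each held 2 cores, 1 of the 2 annotated starts of Vegfa held 2, and Angptl1, Angptl2 and Vegfc held none. That Vegfa window overlapped exons of Vegfa itself. Its longest stretch outside exons was 32 bases and held no core. The Angptl1 window lay wholly within annotated exons of Angptl1. The direct repeat bound by PPAR receptors, AGGTCA and AGGTCA with any 1 base between them, was in 0.0335% of all promoters and in none of the windows of these genes. Angptl4 had no entry. A match says only that these letters are in the window, and binding was not measured.

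The study also measured Angptl6 by quantitative PCR, and its primers show which stretch of the transcript that assay reads. Both lie in exon 5 of transcript Angptl6-201 on GRCm38, at chr9:20875410-20875429 (forward) and chr9:20875333-20875355 (reverse), and enclose 97 bases.
Forward: ttgggcgtccagaaggagaa
Reverse: cagtcctctaggagtatcagcag

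The libraries were shallow. Recovered reads ranged from 1183743 to 1379674 in WT and from 1153871 to 1454094 in CKO, so 1 read was worth 0.688 to 0.867 CPM and 3 reads 2.06 to 2.60 CPM. Reads carry no molecular identifiers, so floors and counting bounds cover counting error only. Hnrnpk itself stood at 842, 955 and 944 CPM in the libraries labelled WT and at 759, 949.9 and 779.98 CPM in those labelled CKO. The groups overlapped (log2 fold change -0.14, SE 0.15, limma adjusted p = 0.622), and whole-gene counts do not separate the deleted exons from the rest, so the labels were not checked by this gene. Chondrocyte markers identify the tissue: their summed level was 21826 to 26932 CPM in the WT libraries and 5281 to 5319 CPM in the CKO libraries, and 6 of the 8 fell, Cnmd, the highest, among them. Fewer cells of a type and less RNA per cell cannot be told apart in bulk cartilage. The sums of some other marker lists also differed with genotype, though few genes of each list were called. The part of these lists in the results for the 10 genes was not tested. In the macrophage and osteoclast, epidermal and hypertrophic lists the larger part of the difference lay in 1 gene each. Those sums therefore do not show a shift of the whole list. Cd68 stood at 6.75 to 11.8 CPM in WT and at 46.9 to 76.3 CPM in CKO. Perp stood at 8.45 to 18.8 and 97.0 to 145 CPM, and Spp1 at 1037 to 3769 and 11114 to 12045 CPM, in that order. Macrophage and osteoclast markers summed to 114 to 134 CPM across WT, against 195 to 231 CPM across CKO (1 of 10 rose, Cd68, while Ctsk was the highest), and epidermal markers to 27.0 to 53.6 and 133 to 202 CPM (Perp, the highest, was the 1 that rose, and 6 of 8 were analysed). Hypertrophic markers summed to 1535 to 4657 and 12420 to 15245 CPM (1 of 9 rose, Spp1, the highest), and perichondrial, tendon and joint markers to 2819 to 4500 and 1052 to 1928 CPM (Prg4 rose, Dcn fell, and Col3a1 was the highest of the 10). Skeletal muscle markers summed to 59.3 to 239.9 and 107 to 124 CPM, and erythroid markers to 0.725 to 5.25 and 2.06 to 28.9 CPM, with none called in either list (Mylpf and Hba-a2 were the highest).

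By limma on log2(CPM + 1) with Benjamini-Hochberg adjustment over the 12155 genes tested, 2 of the 10 genes were higher in CKO and 1 was lower at an adjusted p under 0.05. Among all genes tested 3.18% were called higher and 2.60% lower. By the criterion stated in the study (a log2 fold change past 1 with an unadjusted p under 0.05) Angptl7 joined them, which gave 3 higher and 1 lower, against 5.30% and 5.10% of all genes. The libraries of both genotypes did not overlap for 2 genes higher and 1 lower, against 14.5% and 13.2% of all genes. The median log2 fold change was 0.01 over the 10 genes and 0.01 over all genes tested. The study displayed Angptl4, Angptl7 and Vegfa from these same libraries and picked Angptl6 from them for quantitative PCR. Their levels in these libraries are therefore not independent evidence of a direction. The study reports Angptl6 as lower in CKO cartilage by quantitative PCR, a separate assay whose values were not analysed here.

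**Figure D1:**
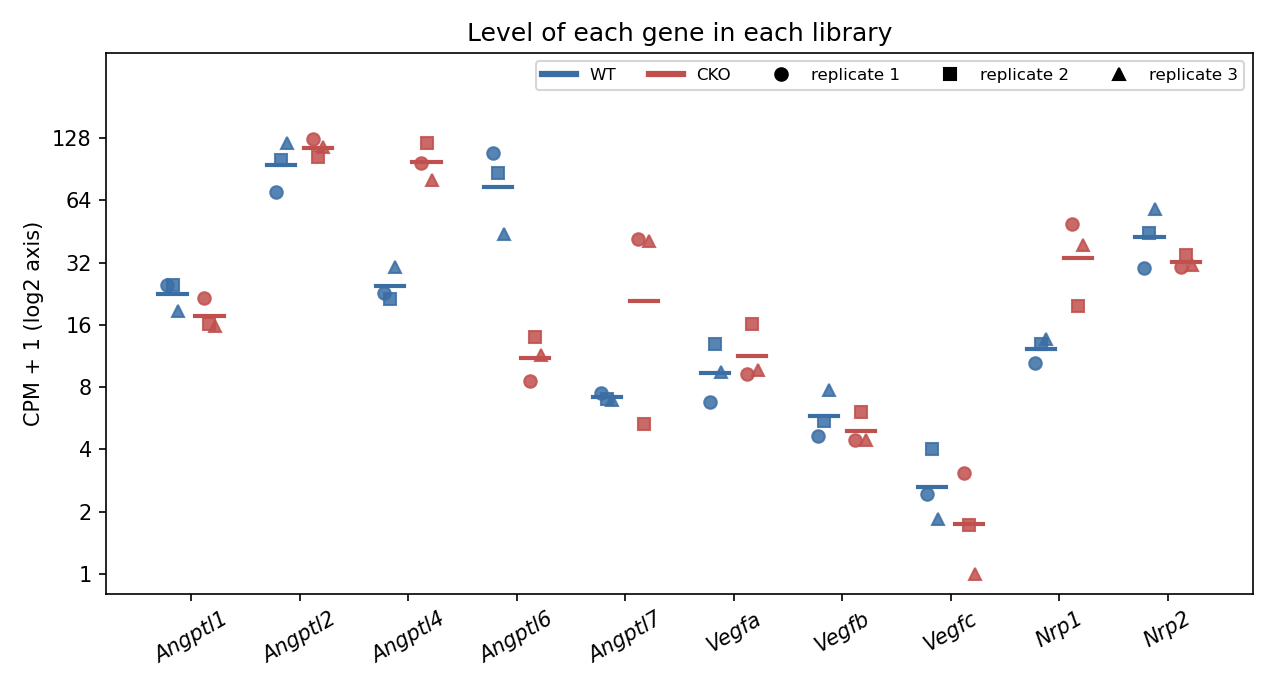
CPM + 1 on a log2 axis for each of the 10 genes, with 1 point per library (WT blue, CKO red, marker shape for the replicate number) and a bar at the mean of log2(CPM + 1) for each group of 3. Angptl4 and Nrp1 are higher in all 3 CKO libraries and Angptl6 lower in all 3, while the CKO 2 library of Angptl7 lies with the WT libraries.

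Angptl6, a secreted factor known for effects on vessels, skin and energy balance, fell the most of the 10 genes. It stood at 108, 85.6 and 43.1 CPM in WT 1, 2 and 3, whereas CKO 1, 2 and 3 held 7.56, 12.99 and 10.4 CPM. Every CKO library lay below every WT library, and WT 3 lay well below the other WT libraries. The mean fell 7.64-fold, from 78.9 ± 33.0 to 10.3 ± 2.71 CPM (SD, n = 3 each), on 314 and 41 reads. The log2 fold change was -2.75 (SE 0.35, 95% interval -3.52 to -1.98, limma adjusted p = 0.00263). The exact two-sided permutation test over the 6 libraries gave p = 0.1, the smallest that 3 against 3 allow. The call held in all 16 alternative settings, with log2 fold changes from -3.13 to -2.38.

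The gene lies at chr9:20873808-20879727 on the minus strand (GRCm38, GENCODE M21) and shares 265 exonic bases with A230050P20Rik on the opposite strand. Although the kit keeps strand, the strand setting of the counting is not given in the sources used here. A230050P20Rik, looked up for this overlap, stood at 2.90, 3.0 and 1.69 CPM in WT libraries 1 to 3 and 0, 0.722 and 0.867 CPM in CKO libraries 1 to 3, a small fraction of the Angptl6 level. Near-identical copies were found for none of the 10 genes (at least 300 bp at 90% identity).

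Angptl4, whose product inhibits lipoprotein lipase and which hypoxia and PPAR receptors induce in other tissues, moved the opposite way. It stood at 21.7, 20.3 and 29.6 CPM in WT 1, 2 and 3, whereas CKO 1, 2 and 3 held 95.6, 119.8 and 78.9 CPM. The lowest CKO library was well above the highest WT library. The mean rose 4.11-fold, from 23.9 ± 5.0 to 98.1 ± 20.6 CPM (SD, n = 3 each), from 92 and 396 reads. The log2 fold change was 1.99 (SE 0.23, 95% interval 1.47 to 2.51, limma adjusted p = 0.00183), and the exact permutation p was again 0.1. It too passed in all 16 alternative settings, with log2 fold changes from 1.83 to 2.15. The gene lies at chr17:33773750-33781830 on the minus strand.

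Adipocytes express Angptl4 strongly, and their markers summed to 114 to 383 CPM in WT and to 436, 59.2 and 446 CPM in CKO 1, 2 and 3, with none of the 4 tested called. Adipoq, the adipocyte hormone gene, was named after its values were seen. It was at 57.8, 0 and 58.1 CPM in CKO 1, 2 and 3 and at 25.5 to 58.3 CPM in WT. Fabp4, the marker of that list with the highest mean, stood at 353, 51.2 and 367 CPM in CKO 1, 2 and 3. CKO 2 thus had no Adipoq read but did hold Fabp4 reads, and its Angptl4 level was 119.8 CPM. The part of these cells in the Angptl4 level was not tested.

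Angptl7, a secreted protein best known from the eye, did not pass the test, and its CKO libraries differed among themselves. It stood at 6.52, 6.0 and 5.91 CPM in the WT libraries and at 40.6, 4.33 and 39.9 CPM in the CKO libraries. These levels came from 9, 8 and 7 reads and from 59, 6 and 46 reads, so CKO 1 and CKO 3 lay far above WT and CKO 2 lay with it. The log2 fold change was 1.55 (SE 0.67, 95% interval 0.05 to 3.04, limma adjusted p = 0.218, unadjusted p = 0.044), with means of 6.15 ± 0.329 and 28.3 ± 20.7 CPM (SD, n = 3 each). Without CKO 2 the log2 fold change was 2.53 (limma adjusted p = 0.000668). On the recovered reads it passed with edgeR without a filter (log2 fold change 2.13, adjusted p = 0.0129) and with DESeq2 (2.17, adjusted p = 0.0226). Over 14 alternatives the adjusted p ranged from 0.000668 to 0.5. Angptl7 lies at chr4:148495183-148500460, on the strand opposite to its host Mtor and within an intron of it, and Mtor, the growth-control kinase, had a log2 fold change of 0.63 (limma adjusted p = 0.369).

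Genes of the osteoblast list differed in whether CKO 2 stood apart in the same way. Bglap, which is also 1 of the 3 genes most like Angptl7 by pattern, stood at 26.8, 2.89 and 28.6 CPM in CKO 1, 2 and 3 and at 5.80 to 6.75 CPM in WT. Bglap2, named after its values were seen, split too, at 289.5, 35.4 and 257 CPM in CKO 1, 2 and 3 and at 30.4 to 69.0 CPM in WT. Col1a1 and Sp7, named after their values were seen, did not split (245, 240.4 and 269 CPM, and 4.13, 4.33 and 4.33 CPM, in CKO 1, 2 and 3). The Sp7 levels came from only 6, 6 and 5 reads. The whole list of 8 summed to 799 to 1343 CPM in WT and to 895, 497 and 872 CPM in CKO 1, 2 and 3 (Col1a2, the highest, fell and none rose). The part of these cells in the Angptl7 level was not tested.

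Angptl2, a secreted factor made by adipose and stromal cells, had the most reads of the 5 Angptl genes over the 6 libraries. It stood at 69.6, 99.1 and 121 CPM across WT, against 126, 102 and 114 CPM across CKO. WT 1 was the lowest and the other libraries lay between 99.1 and 126 CPM, and the log2 fold change of 0.27 (95% interval -0.21 to 0.76, limma adjusted p = 0.52) did not pass. Angptl1, described as an inhibitor of vessel growth, stood at 23.9, 24.0 and 17.7 CPM in WT libraries 1 to 3 and at 20.6, 15.2 and 14.7 CPM in CKO libraries 1 to 3. The groups overlapped through WT 3 and CKO 1 (log2 fold change -0.36, 95% interval -0.96 to 0.24, limma adjusted p = 0.483). Angptl2 (chr2:33216069-33247717, plus strand) lies within Ralgps1 and Angptl1 (chr1:156838562-156861078, plus strand) within Ralgps2, both on the opposite strand without shared exonic bases. Neither host passed the test (log2 fold change 0.92, limma adjusted p = 0.392, and -0.69, limma adjusted p = 0.433).

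The make-up of the Angptl reads differed between genotypes more than their sum did. The 5 genes together gave 230, 235 and 217 CPM in the WT libraries and 290.2, 255 and 258 CPM in the CKO libraries. Angptl6 made up 47.0%, 36.4% and 19.8% of these reads in WT and 2.61%, 5.10% and 4.03% in CKO. Angptl4 made up 8.63 to 13.6% in WT and 30.5 to 47.0% in CKO. These shares restate the levels above within the family and were not tested.

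**Figure D2:**
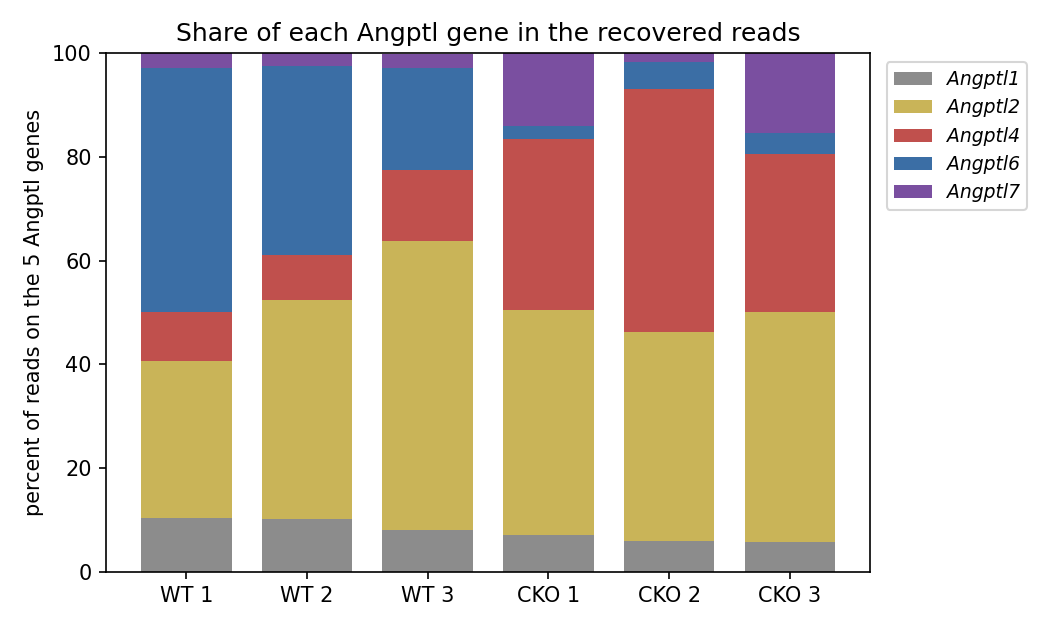
Percent of the recovered reads on the 5 Angptl genes taken by each gene, 1 stacked bar per library. Angptl6 (blue) takes 19.8 to 47.0% in WT and 2.61 to 5.10% in CKO, Angptl4 (red) 8.63 to 13.6% and 30.5 to 47.0%, and Angptl7 (purple) is wide only in CKO 1 and CKO 3.

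The VEGF ligands were low and none passed the test. Vegfa, the main signal that draws vessels into the growth plate, stood at 5.80, 12.0 and 8.45 CPM across WT, against 8.25, 15.2 and 8.67 CPM across CKO, from 34 and 43 reads in all. Replicate 2 was the highest in both groups, and the groups overlapped. The log2 fold change was 0.26 (95% interval -0.58 to 1.11, limma adjusted p = 0.740), an interval that still holds an upward change of 1 on the log2 scale. Vegfa lies at chr17:46016993-46032369 on the minus strand.

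Vegfb, a ligand of the receptor encoded by Flt1, was at 3.62, 4.50 and 6.76 CPM in WT libraries 1 to 3 and at 3.44, 5.05 and 3.47 CPM in CKO libraries 1 to 3 (19 and 16 reads). Its log2 fold change of -0.24 (95% interval -1.13 to 0.65, limma adjusted p = 0.779) had an interval that covers both directions. Vegfc, the lymphatic ligand, was at 1.45, 3.0 and 0.845 CPM in the WT libraries and at 2.06, 0.722 and 0 CPM in the CKO libraries, only 7 and 4 reads (log2 fold change -0.59, 95% interval -1.87 to 0.68, limma adjusted p = 0.603). The 0 of CKO 3 allows up to 2.60 CPM, which covers all of the other values but that of WT 2. Vegfb lies at chr19:6982473-6987651 on the minus strand and Vegfc at chr8:54077606-54187096 on the plus strand.

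The remaining family ligands, Pgf and Vegfd, did not pass either (log2 fold change 0.78, limma adjusted p = 0.412, and 0.08, limma adjusted p = 0.935; both are named after their values were seen). Vegfd, at 7.94 to 21.3 CPM over the 6 libraries, had more reads than Vegfa. The receptors that transduce VEGF in endothelium were near 0. Flt1 (VEGFR1) had 2 reads in WT and 5 in CKO, Flt4 (VEGFR3, lymphatic) had 0 and 1, and Kdr (VEGFR2) was not analysed here. Endothelial markers were low: 11 of 12 were analysed, they summed to 14.5 to 24.0 CPM across WT, against 15.1 to 20.9 CPM across CKO, and none of the 3 tested was called. Egfl7 was the highest, with 41 and 38 reads in WT and CKO. The defining markers Pecam1 and Cdh5 had 2 and 1 reads, and 0 and 1 reads, in WT and CKO. Cdh5, Robo4, Vwf, Tek and Tie1 were at 0 in every WT library. Of these markers Pecam1, Cdh5, Robo4 and Vwf were named after their values were seen. Of the 4 lymphatic markers 1 was analysed, Flt4.

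Of the neuropilins, Nrp1, the co-receptor for VEGF-A and semaphorin 3A, rose and Nrp2 did not pass. Nrp1 stood at 9.42, 12.0 and 12.7 CPM in WT 1, 2 and 3, whereas CKO 1, 2 and 3 held 48.1, 18.8 and 38.1 CPM. All CKO libraries lay above all WT libraries, and CKO 2 was again the CKO library nearest to WT. The mean rose 3.08-fold, from 11.4 ± 1.72 to 35.0 ± 14.9 CPM (SD, n = 3 each), from 44 and 140 reads. The log2 fold change was 1.45 (SE 0.35, 95% interval 0.68 to 2.23, limma adjusted p = 0.0392, exact permutation p = 0.1).

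The Nrp1 call was near the threshold. It passed in 10 of 16 alternative settings, with edgeR (log2 fold change 1.58, adjusted p = 0.0339) and DESeq2 (1.6, adjusted p = 0.015) among them. Of the 6 settings in which it was lost, 1 was a term for the replicate number and 5 left out WT 1, WT 2, WT 3, CKO 1 or CKO 3, with limma adjusted p of 0.146, 0.12, 0.0636, 0.153 and 0.15 in that order and log2 fold changes from 1.18 to 1.53. Without CKO 2 the log2 fold change was 1.84 (limma adjusted p = 0.00256). Nrp1 lies at chr8:128358604-128503363 on the plus strand.

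Nrp2, the co-receptor for VEGF-C and semaphorin 3F, stood at 29.0, 43.5 and 57.4 CPM in WT libraries 1 to 3 and at 29.6, 33.9 and 30.3 CPM in CKO libraries 1 to 3. The CKO libraries all lay within the wider WT range (log2 fold change -0.41, 95% interval -0.996 to 0.18, limma adjusted p = 0.413). Among the class 3 semaphorins and plexins, the other ligands and signalling partners of neuropilins, none of the 10 tested of 12 was called. Plxna1, named after its values were seen, was the 1 whose libraries did not overlap, higher in CKO as for 14.5% of all genes tested. It stood at 0.750 to 1.69 CPM in the WT libraries and 3.47 to 5.05 CPM in the CKO libraries (log2 fold change 1.26, limma adjusted p = 0.124). Nrp2 lies at chr1:62703285-62818695 on the plus strand.

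**Figure D3:**
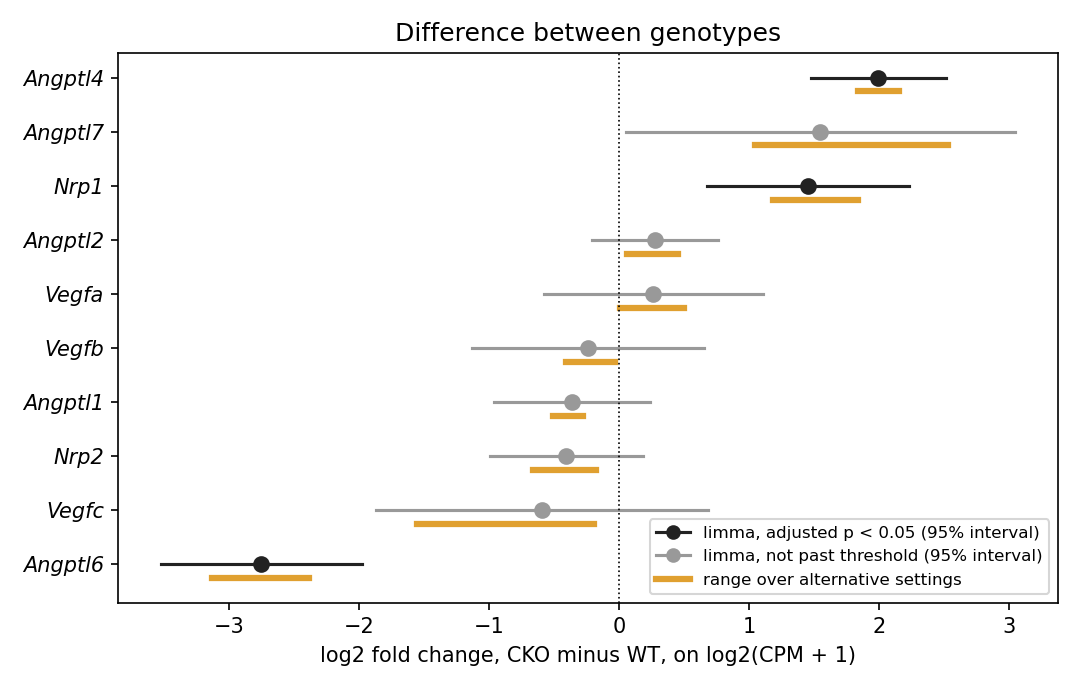
Log2 fold change of CKO minus WT on log2(CPM + 1) for the 10 genes, with its 95% interval from limma (black where the adjusted p is under 0.05, grey otherwise) and in orange the range over the alternative settings. Angptl4 and Nrp1 lie to the right and Angptl6 to the left with intervals off 0; the interval of Angptl7 runs from 0.05 to 3.04.

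Levels can be set side by side across genes only per length, here as mean CPM per kb of annotated exons. In WT the order was Angptl6 (49.9 CPM per kb), Angptl2 (15.3), Angptl1 (7.71), Angptl4 (6.74), Nrp2 (3.66), Vegfb (3.09), Angptl7 (2.85), Vegfa (2.04), Nrp1 (1.16) and Vegfc (0.721). Angptl6, at 27.2 to 68.3 CPM per kb in the 3 libraries, stood clear of Angptl2 at 11.1 to 19.2. Angptl1 and Angptl4 overlapped, as did each neighbouring pair from Nrp2 to Vegfa, and Nrp1 overlapped with Vegfc. In CKO the order was Angptl4 (27.7 CPM per kb), Angptl2 (18.2), Angptl7 (13.1), Angptl6 (6.52), Angptl1 (5.93), Nrp1 (3.58), Nrp2 (2.64), Vegfa (2.5), Vegfb (2.48) and Vegfc (0.379). Angptl4, at 22.3 to 33.8 CPM per kb, stood clear of Angptl2 at 16.3 to 20.02, and Angptl1 stood clear of Nrp1 and Vegfb of Vegfc, while the other neighbouring pairs overlapped. Angptl6 thus went from the first place to the fourth, and Angptl4 from the fourth to the first.

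The 3 genes whose pattern over the 6 libraries was most like each of 4 members were found by the root mean square difference of log2(CPM + 1) values centred on each gene's mean, among the 6827 genes averaging 10 CPM or more. For Angptl4 they were S100a6, Anxa8 and Il4ra (0.14, 0.15 and 0.19 on the log2 scale). For Angptl6 they were Ahi1, Cyb5r1 and Aldoc (0.30, 0.34 and 0.35), of which Aldoc, a glycolytic aldolase, stood at 75.4, 71.3 and 27.9 CPM across WT, against 11.0, 11.5 and 8.67 CPM across CKO, so WT 3 was low for it as for Angptl6. For Angptl7 they were the bone matrix gene Ibsp, Thbs1 and Bglap (0.22, 0.25 and 0.27), all low in CKO 2. For Vegfa they were Rrs1, Bub1 and Tspyl2 (0.12, 0.15 and 0.15). For Nrp1, added after its values were seen, they were Map2k5, Gja1 and Loxl4 (0.07, 0.11 and 0.14). Likeness over 6 libraries that share genotype and depth is a description.

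**Figure D4:**
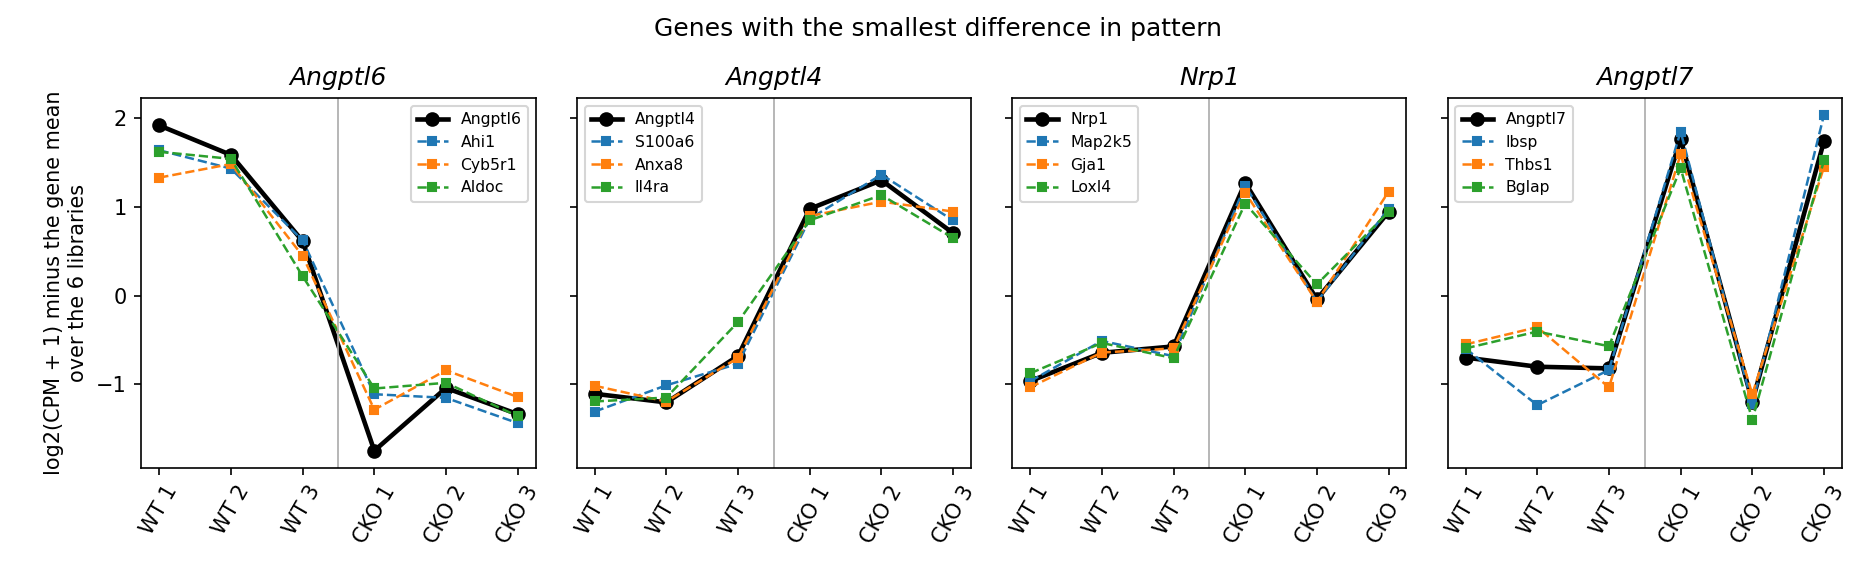
Log2(CPM + 1) minus the gene's mean over the 6 libraries for Angptl6, Angptl4, Nrp1 and Angptl7 (black) and the 3 genes most like each (dashed colours). Lines join libraries to guide the eye and replicates have no order; Nrp1 and Angptl7 dip in CKO 2 and Angptl6 is lower in WT 3 than in the other WT libraries.

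Most other genes of these pathways did not pass the test. Of 78 genes in 10 lists, 76 were analysed, 63 were tested, 2 were called higher, 4 lower and 57 not called, with a median log2 fold change of 0.08, against the 3.18% and 2.60% of all genes given above. Of the angiopoietins and their receptors none of 3 tested was called. Angpt4, named after its values were seen, stood at 24.6, 23.3 and 18.6 CPM in WT libraries 1 to 3 and 13.8, 2.17 and 9.53 CPM in CKO libraries 1 to 3 (log2 fold change -1.54, limma adjusted p = 0.108). Tek, the gene for Tie2, had 0 reads in WT and 4 in CKO, and Tie1 had 0 and 1. Angptl8, which acts in lipoprotein lipase control and is also named after its values were seen, had 7 reads in WT and 0 in CKO. It was under the filter on low values and was not tested. Set against a floor of 3 reads over the CKO group, the 7 reads are 2.39-fold higher. That figure leaves out the counting error of the 7 reads, so it is not a lower bound.

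Of the targets and receptors of angiopoietin-like proteins 1 of 7 tested fell and none rose. Lmf1, which matures lipoprotein lipase in the endoplasmic reticulum, stood at 68.9, 72.0 and 65.0 CPM in the WT libraries and at 31.6, 31.8 and 36.4 CPM in the CKO libraries. The groups were far apart (log2 fold change -1.03, SE 0.19, limma adjusted p = 0.0132), and the call was lost without WT 1, WT 2 or CKO 1 (limma adjusted p 0.0699, 0.0793 and 0.0632). Lpl, the lipase that ANGPTL4 inhibits, ranged from 72.9 to 341 CPM with CKO 2 lowest (log2 fold change -0.29, limma adjusted p = 0.771; named after its values were seen).

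Inhibitors of vessel growth were the pathway list with most calls, 1 higher and 2 lower of 8 tested. Cnmd, chondromodulin, the cartilage inhibitor of vessel growth, stood at 9498, 9533 and 9818 CPM across WT, against 1804, 1042 and 1799 CPM across CKO. It was also a chondrocyte marker of the list above (log2 fold change -2.68, limma adjusted p = 0.000139). Serpinf1, which encodes the inhibitor PEDF, fell from between 199 and 223 CPM to between 65.0 and 108 CPM (log2 fold change -1.22, limma adjusted p = 0.00943; 0.0544 without WT 1 and 0.0501 without WT 2). Timp3, which blocks the binding of VEGF to VEGFR2 and inhibits metalloproteinases, rose from 139.9, 166 and 122 CPM to 695, 219 and 676 CPM, with CKO 2 again nearest to WT (log2 fold change 1.72, limma adjusted p = 0.0262). The Timp3 call held without CKO 2 (log2 fold change 2.27, limma adjusted p = 1.82e-05) and was lost without any other single library (limma adjusted p 0.0709 to 0.112).

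Of 9 tested regulators of Angptl4 and Vegfa none was called. Hif1a, the oxygen-regulated subunit of HIF-1, stood at 19.6, 19.5 and 26.2 CPM in WT libraries 1 to 3 and at 13.8, 13.7 and 15.6 CPM in CKO libraries 1 to 3. Its libraries did not overlap and were lower in CKO, as were those of 13.2% of all genes tested. The log2 fold change of -0.56 (95% interval -1.14 to 0.02, limma adjusted p = 0.253) did not pass. Of the 13 tested genes that hypoxia induces in many cells none was called higher and 1 was called lower. By the study's criterion 1 was higher and 1 lower. The gene higher by that criterion was Adm, named after its values were seen. Adm stood at 29.0, 30.8 and 51.5 CPM in the WT libraries and at 110, 33.9 and 124.8 CPM in the CKO libraries (log2 fold change 1.09, limma adjusted p = 0.181). The gene called lower was Pdk1, a kinase that restrains pyruvate entry into mitochondria. Pdk1 stood at 7.97, 11.3 and 11.8 CPM in the WT libraries and at 0.688, 2.89 and 0.867 CPM in the CKO libraries (log2 fold change -2.28, limma adjusted p = 0.0185). It rests on 40 and 6 reads, and the call held without CKO 2 (limma adjusted p = 0.00409) and was lost without any other single library (0.0536 to 0.0901). Of the 8 tested PPAR targets 1 rose and none fell: Plin2, a coat protein of lipid droplets, stood at 74.7, 52.5 and 83.6 CPM across WT, against 212, 199 and 195 CPM across CKO (log2 fold change 1.54, limma adjusted p = 0.00279, and past the threshold without any 1 library). Its CKO libraries lay close together and above all WT libraries. By the study's criterion 2 PPAR targets were higher and none lower, against 5.30% and 5.10% of all genes. The other was Cpt1a, named after its values were seen (log2 fold change 1.23, limma adjusted p = 0.0594).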

How the data were processed

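Poly(A) RNA of growth plate cartilage was measured in 3 WT and 3 CKO libraries, grouped by their labels. The authors deposited CPM for 15803 genes; the submitters' processing notes name cutadapt 2.5, HISAT2 and featureCounts 1.6.3, and the genome build, annotation and strand setting are not given in the sources used here. All values (100%) were whole multiples of 1 read within 0.1 read, so reads were recovered (1153871 to 1454094 per library), which limits precision for genes of few reads. The members and lists were chosen with earlier results of these data known.

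CPM + 1 was log2-transformed (pseudocount 1) and fitted on genotype with limma 3.58.1 (R 4.3.3; trend, Benjamini-Hochberg over 12155 genes averaging 1 CPM or more, threshold 0.05), because the study states a criterion but not its test. The fold changes of low genes are understated on this scale. Alternatives were pseudocounts 0.1 and 5, no filter, a mean of at least 10 CPM, TMM-scaled CPM, a replicate block, each library left out, the study's criterion, and edgeR 4.0.16 (quasi-likelihood, with its own filter, RLE factors, or no filter) and DESeq2 1.42.0 on recovered reads. The fits were tested on simulated data. Intervals are 95%. Gene positions are from GENCODE M21 (GRCm38), upstream sequences from RefSeq (GRCm38.p6), and copies were searched with BLAST 2.17.0.

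Named were all 10 members, Hnrnpk, Hif1a, listed genes past the threshold, the receptors Flt1, Kdr, Flt4, Tek and Tie1, host genes, the highest marker of a list and the 3 most alike genes; any other is said to be named after its values were seen.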

Additional observations from a re-analysis of the deposited data

How the results depend on the processing

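Angptl4 and Angptl6 kept direction and call in all 16 alternatives run. No gene of the 10 reversed. Members called higher numbered 1 with the replicate block and 1 to 3 when each library was left out. Pathway genes called higher (2) numbered 5 with edgeR without a filter, 6 by the study's criterion and 1 to 5 when each library was left out. Those called lower (4) numbered 7, 7 and 1 to 6. Over all genes, 703 calls became 212 to 1298 when each library was left out (1298 without CKO 2) and 385 with the block, 737 with edgeR and 649 with DESeq2. The replicate numbers were not shown to pair the samples: same-numbered deviations correlated at 0.07, -0.21 and -0.16. No library correlated best with its own number. With the replicate block the calls of Nrp1 and Lmf1 were lost (limma adjusted p of 0.0737 and 0.0507). Vegfa, Vegfb, Vegfc and Angptl7 fell under some filters and have no value there, and 11 to 77 reads in all limit the VEGF ligands. The causes of these shifts, other than fewer libraries, were not tested.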
